A study of Homo sapiens with 4 samples.

Results

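The chemokines described here are the 6 ELR CXC chemokines CXCL1, CXCL2, CXCL3, CXCL5, CXCL6 and IL8 (CXCL8 in current nomenclature), together with CCL20, CCL2, CCL5 and CX3CL1. These 10 genes, of 23228 counted, were taken by symbol and were chosen because CCL20, IL8 and CXCL1 fell strongly in the comparison described below, so their changes are given as a description, without a test. RNA sequencing was done on the established human breast cancer line MDA-MB-231 (triple negative), from which cells with high aldehyde dehydrogenase activity had been sorted as cancer stem cells (ALDEFLUOR assay) and grown in MammoCult medium. Lentiviral vectors in these cells stably expressed either an shRNA against KDM1A (2 libraries) or a control shRNA (2 libraries). KDM1A, also called LSD1, is a histone demethylase of the CoREST repressor complex. The comparison asks what KDM1A knockdown does to gene expression in these stem-like cells. The labels name 1 KDM1A shRNA vector and no rescue, so loss of KDM1A, off-target action of the shRNA and differences between stable cultures cannot be told apart. It is not stated whether the duplicate libraries derive from separate cultures, so p-values reflect the spread between libraries alone, and that spread may be technical.

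Chemokines are small secreted proteins that guide cells along concentration gradients by binding G protein-coupled receptors. ELR CXC chemokines carry a glutamate-leucine-arginine motif before the first cysteines, bind CXCR1 and CXCR2, attract neutrophils and promote angiogenesis. CCL20 binds CCR6 and attracts immature dendritic cells, B cells and Th17 cells, and in epithelial and tumor cells it is induced, like the ELR CXC genes, by interleukin-1, TNF and Toll-like receptor signals through NF-kB.

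The libraries held 23902900 and 25761937 gene reads with KDM1A shRNA, against 26923678 and 24250377 with control shRNA. A count of 0 allows up to 3 reads, or 0.111 to 0.126 CPM (counts scaled to library size), for counting error only. KDM1A, the targeted gene, had 561 and 649 reads in KDM1A shRNA libraries, against 4660 and 4059 reads in control libraries, a fall of 7.03-fold (log2 fold change −2.81, SE 0.05, edgeR adjusted p = 2.2e-14). CDKN2A at 9p21 is known to be deleted in MDA-MB-231, and genes of that region went against the cell line label in the control libraries. CDKN2A had 13 and 19 reads with KDM1A shRNA, against 323 and 329 reads with control shRNA, and MTAP had 15 and 14 reads with KDM1A shRNA, against 271 and 256 reads with control shRNA. CDKN2B had 0 and 1 reads with KDM1A shRNA, against 27 and 31 with control shRNA, and KLHL9 had 8 and 9 reads with KDM1A shRNA, against 290 and 293 with control shRNA. Because it involves both control libraries, no value can be given without them, and the part of this difference in the results below was not tested. In bulk RNA, fewer cells of a type and less RNA per cell cannot be told apart. Of 13 leukocyte markers, MS4A1, MPO and TYROBP were at 0 in all 4 libraries, and PTPRC had 4 and 3 reads with KDM1A shRNA, against 2 and 2 reads with control shRNA. The leukocyte markers summed to 8.98 and 9.92 CPM with KDM1A shRNA, against 7.24 and 8.86 CPM with control shRNA, with 1 higher and 1 lower among 2 tested. The 8 fibroblast markers summed to 110 and 102 CPM with KDM1A shRNA, against 146 and 142 CPM with control shRNA. None of the 8 was at 0 in all libraries. Among 6 tested, 4 were higher (LUM, COL1A1, PDGFRB and FAP) and 2 lower (DCN and PDGFRA). PDGFRA had enough reads for a test only in the control libraries, and FAP only in the KDM1A shRNA libraries. DCN, which made up most of the control sum, had 1382 and 1351 reads with KDM1A shRNA, against 3361 and 2901 reads with control shRNA. The 7 endothelial markers summed to 54.5 and 56.4 CPM with KDM1A shRNA, against 103 and 95.1 CPM with control shRNA, and the 4 tested were all lower. CDH5, 1 of these markers, had 9 and 5 reads with KDM1A shRNA, against 21 and 20 reads with control shRNA. VWF had 3 and 4 reads with KDM1A shRNA, against 24 and 13 reads with control shRNA. Both had enough reads for a test only in the control libraries, so a fall was the likely outcome for them. Most of the endothelial sum came from KDR and PECAM1. KDR had 769 and 868 reads with KDM1A shRNA, against 1992 and 1628 reads with control shRNA. PECAM1 had 505 and 564 reads with KDM1A shRNA, against 696 and 630 reads with control shRNA. TEK, TIE1 and EMCN had too few reads to test, and TEK had 7 reads in every library. The 5 markers of the line itself (VIM, CD44, KRT8, KRT18 and EGFR) summed to 3437 and 3523 CPM with KDM1A shRNA, against 3147 and 3130 CPM with control shRNA. Over all genes tested, 28.8% were lower and 27.3% higher, so nothing is read from the counts of markers called. The part of these markers in the chemokine results was not tested.

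The ELR CXC genes form 1 cluster on chromosome 4. On GRCh37 (hg19) they span chr4:74606236-74964913, a stretch of 359 kb that runs from IL8 (plus strand) to CXCL2 (minus strand). CXCL6 (plus strand, starting at 74702357) and CXCL1 (plus strand, starting at 74735110) lie between them, followed by CXCL5 (74861359 to 74864394) and CXCL3 (74902306 to 74904524), both on the minus strand. CCL20 lies apart on the plus strand at chr2:228670455-228682280, CCL2 (plus strand) at chr17:32582293-32584227, CCL5 (minus strand) at chr17:34198495-34207797 and CX3CL1 (plus strand) at chr16:57406389-57418956. Spans are those of the whole gene, exons, introns and UTRs included, in GENCODE release 44 lifted to GRCh37.

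Promoter sequence is shown so that NF-kB-type motifs, which the choice of genes did not use, can be compared between the members. RefSeq promoters (GRCh38.p14 table, 250 bases before to 50 bases after the start) were given for 7 of the 10 members, each found by exact match at a single place in GRCh37. The 100 bases from −150 to −51 before the RefSeq start are printed 5′ to 3′ on the strand of the gene, with −1 the last base before the start. The RefSeq starts of CXCL2, CXCL3, CXCL6, IL8 and CCL20 lie inside their longer GENCODE spans. The stretch printed for CCL20 lies wholly within the GENCODE span, and that for CXCL3 partly. Capitals mark letters that match 1 of the motifs searched.
CXCL1 (chr4:74734960-74735059, plus strand, GRCh37): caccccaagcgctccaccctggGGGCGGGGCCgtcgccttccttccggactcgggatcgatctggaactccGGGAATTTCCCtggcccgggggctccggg
CXCL2 (chr4:74964963-74965062, minus strand, GRCh37): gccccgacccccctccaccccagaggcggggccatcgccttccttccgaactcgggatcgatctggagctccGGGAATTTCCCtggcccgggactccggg
CXCL3 (chr4:74904457-74904556, minus strand, GRCh37): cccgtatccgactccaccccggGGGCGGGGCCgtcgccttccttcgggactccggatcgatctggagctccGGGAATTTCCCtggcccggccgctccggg
CXCL5 (chr4:74864445-74864544, minus strand, GRCh37): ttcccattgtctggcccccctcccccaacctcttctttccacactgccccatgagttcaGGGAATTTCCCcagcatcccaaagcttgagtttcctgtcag
CXCL6 (chr4:74702245-74702344, plus strand, GRCh37): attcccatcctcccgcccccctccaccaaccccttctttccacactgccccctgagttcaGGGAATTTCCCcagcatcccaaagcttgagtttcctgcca
IL8 (chr4:74606136-74606235, plus strand, GRCh37): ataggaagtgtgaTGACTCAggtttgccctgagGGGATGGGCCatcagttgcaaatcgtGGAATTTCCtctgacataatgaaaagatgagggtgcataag
CCL20 (chr2:228678408-228678507, plus strand, GRCh37): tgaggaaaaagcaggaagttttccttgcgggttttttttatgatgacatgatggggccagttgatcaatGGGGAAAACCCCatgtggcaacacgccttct

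The motif GGAATTTCC, an NF-kB-type sequence, was present in all 6 ELR CXC promoters and not in that of CCL20, where no match says only that these letters are not in this window. It lay at −78 to −70 in CXCL1 and CXCL3, at −77 to −69 in CXCL2, at −90 to −82 in CXCL5, at −89 to −81 in CXCL6 and at −91 to −83 in IL8. Among 35116 RefSeq promoters of the same length, 162 (0.461%) held it on either strand. A looser NF-kB pattern, GGG and CC spaced by 5 letters of any kind, was present in 7 of 7 member promoters and in 58.7% of all promoters. It overlaps the stricter motif in CXCL1, CXCL2, CXCL3, CXCL5 and CXCL6, and in CCL20 it gave the overlapping matches between −81 and −70. The AP-1 motif TGANTCA was found in IL8 alone (−137 to −131; 7.71% of all promoters). The C/EBP-type motif TTGCNNAA was found in CXCL2 alone, at −188 to −181, outside the stretch printed (10.5% of all promoters). Both strands were searched, and a match is a description of the letters, not a measured binding site. Over the stretches printed, aligned without gaps at the best shift of up to 5 bases, CXCL1 and CXCL3 were identical at 85 of 100 bases (85.0%), CXCL1 and CXCL2 at 81 of 99 (81.8%), and CXCL5 and CXCL6 at 91 of 99 (91.9%). In the same stretches IL8 and CXCL1 were identical at 26 of 95 bases (27.4%) and IL8 and CCL20 at 38 of 96 (39.6%). Promoters of close paralogs share sequence by descent, so their shared motifs are not independent of each other.

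CCL20 was the member with the highest level in the control libraries. It had 1199 and 1283 reads with KDM1A shRNA, against 13027 and 11567 reads with control shRNA. Both control libraries were far above both KDM1A shRNA libraries. Scaled to library size with edgeR's TMM factors, its level averaged 49.9 ± 0.24 CPM with KDM1A shRNA and 482 ± 6.80 CPM with control shRNA (SD, n = 2 each), or 10.4% of the control level (9.65-fold lower, log2 fold change −3.27, SE 0.04). Of the 10 members, 8 had enough reads for the fit across 14012 genes, all 8 were lower at an adjusted p under 0.05, and 7 were lower by 2-fold or more. The same call was made for 28.8% of all genes tested in the lower direction, for 27.3% in the higher direction and for 8.54% with a fall of 2-fold or more. Since the genes were chosen on this contrast, nothing is read from the count of members. Their median log2 fold change was −2.40, and that of all genes tested was −0.005. That median does not show that large falls were more common than large rises. On the log2 scale 31 genes lay between −4 and −3.75, and 3 genes lay between 3.75 and 4.

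IL8 is the best known attractant and activator of neutrophils. It had 975 and 980 reads with KDM1A shRNA, against 8191 and 7408 reads with control shRNA. Its mean level was 39.3 ± 1.93 CPM with KDM1A shRNA and 306 ± 0.34 CPM with control shRNA (SD, n = 2 each; 7.77-fold lower, log2 fold change −2.96, SE 0.05). Among the 4 pairings of a KDM1A shRNA library with a control library the log2 ratio ran from −3.01 to −2.91.

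CXCL1, CXCL2 and CXCL3 are the GRO chemokines, close paralogs that act mainly through CXCR2. CXCL1 had 1056 and 1150 reads with KDM1A shRNA, against 6062 and 5991 reads with control shRNA. Its level was 44.3 ± 0.34 CPM with KDM1A shRNA and 237 ± 14.6 CPM with control shRNA (SD, n = 2 each), 5.34-fold lower (log2 fold change −2.42, SE 0.05). CXCL3 had fewer reads, 193 and 234 with KDM1A shRNA, against 1219 and 1077 with control shRNA. Its change was close to that of CXCL1, with levels of 8.56 ± 0.71 CPM with KDM1A shRNA and 45.0 ± 0.79 CPM with control shRNA (SD, n = 2 each; log2 change −2.39, SE 0.08). CXCL2 had 380 and 402 reads with KDM1A shRNA, against 1348 and 1213 reads with control shRNA. It kept the largest share of its control level among the 3, at 31.3% (15.7 ± 0.20 CPM with KDM1A shRNA and 50.2 ± 0.23 CPM with control shRNA, SD, n = 2 each; log2 fold change −1.67, SE 0.07). No 100-base stretch of these 3 transcripts was identical to one of another gene. With up to 2 mismatches allowed, 8.84% of such stretches in CXCL1, 12.1% in CXCL2 and 2.87% in CXCL3 matched another gene, in each case within the GRO group, so the values of these paralogs carry that uncertainty.

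CXCL5 and CXCL6 are a second pair of paralogs, and both can attract neutrophils. CXCL5 had 18 and 21 reads with KDM1A shRNA, against 202 and 201 reads with control shRNA. At 0.78 ± 0.044 CPM with KDM1A shRNA and 7.91 ± 0.53 CPM with control shRNA (SD, n = 2 each), it was the member with the largest fold, 10.1-fold lower, with a wider error than the deeper genes (log2 fold change −3.33, SE 0.19). An exon of an unnamed antisense transcript overlaps CXCL5, and no source used here gives the strand setting of the counting, so their reads cannot be told apart. CXCL6 had 0 reads in both KDM1A shRNA libraries, against 1 read in each control library. These counts are under the floor of 3 reads in every library, so no fold is given.

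CX3CL1, or fractalkine, is made as a membrane-bound protein on a mucin-like stalk and attracts cells that carry CX3CR1. It had 383 and 411 reads with KDM1A shRNA, against 655 and 638 reads with control shRNA. Its change was the smallest of the 8, to 62.9% of the control level. The level was 16.0 ± 0.044 CPM with KDM1A shRNA and 25.4 ± 1.30 CPM with control shRNA (SD, n = 2 each). The log2 fold change was −0.67 (SE 0.08). CCL5, or RANTES, attracts T cells and monocytes. It had 6 reads in each KDM1A shRNA library, against 22 and 20 reads with control shRNA, and passed the filter on low counts only through the control libraries (log2 fold change −1.75, SE 0.42). Of its 100-base stretches, 7.92% are identical to a stretch of another gene, so its count is uncertain. CCL2, the main attractant of monocytes, had 0 reads in all 4 libraries. By the share of the control level left, the members ran from CCL20, CXCL5 and IL8 with 9.89% to 12.9%, through CXCL1 and CXCL3 with 18.7% and 19.1% and CCL5 and CXCL2 with 29.4% and 31.3%, to CX3CL1 with 62.9%.

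**Figure D1:**
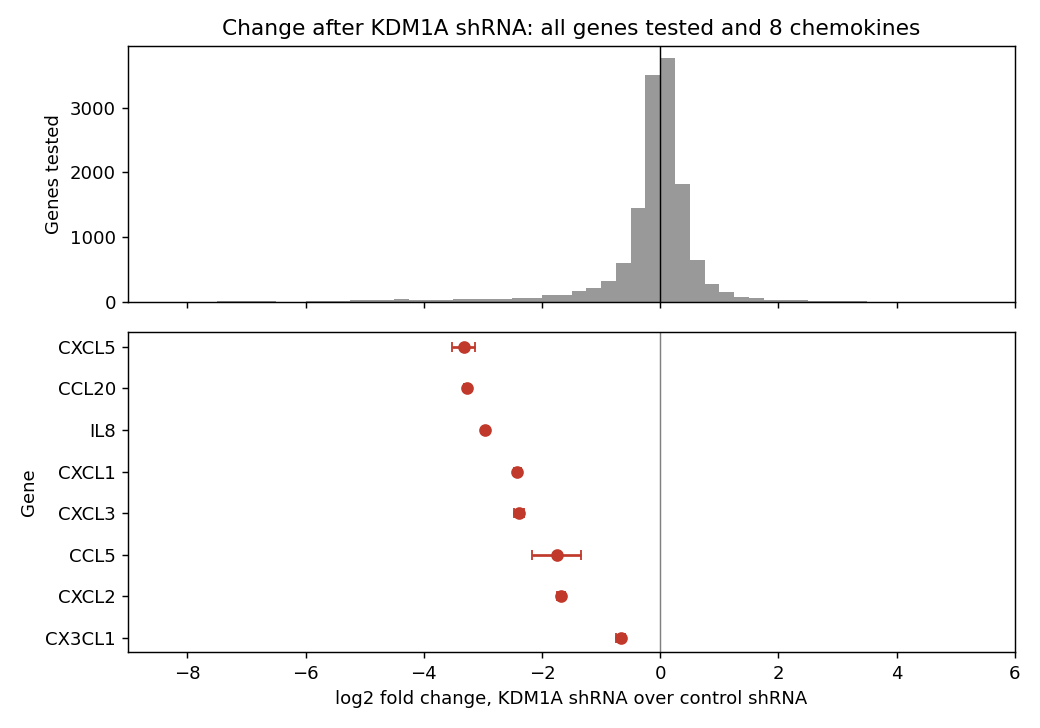
Log2 fold change of KDM1A shRNA over control shRNA. Upper panel, histogram of the 14012 genes tested; lower panel, the 8 chemokines fitted, as points with SE bars. CXCL5 and CCL20 lie farthest left at −3.33 and −3.27, and CX3CL1 lies nearest to 0 at −0.67.

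The place of these folds among all genes is given as a description, since the choice of genes used them. Ordered from the largest fall, CXCL5 was number 372, CCL20 381, IL8 433, CXCL1 540 and CXCL3 546 of 14012 genes tested. Among 10081 genes with a mean log2 CPM of 3 or more, CCL20 was number 20, IL8 26, CXCL1 37, CXCL3 38, CXCL2 83 and CX3CL1 403. CXCL5 and CCL5 lay below that level.

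Levels of different genes were compared per length as RPKM, which is CPM divided by the exon length in kilobases. In the control libraries the order was CCL20 at 302 ± 4.27 RPKM, CXCL1 at 174 ± 10.7, IL8 at 118 ± 0.13, CXCL2 at 35.9 ± 0.17, CXCL3 at 20.3 ± 0.36, CX3CL1 at 4.26 ± 0.22, CXCL5 at 3.25 ± 0.22 and CCL5 at 0.603 RPKM (SD, n = 2 each). Among 21042 genes with a length, CCL20 ranked 55 and CXCL1 131 in the controls, so these chemokines were among the most abundant transcripts of the control cells. With KDM1A shRNA the ranks were 1540 for CCL20 and 1466 for CXCL1, and IL8 stood at 3344 with KDM1A shRNA, against 236 with control shRNA. The level of CXCL1 was 32.6 ± 0.25 RPKM and that of CCL20 31.3 ± 0.15 RPKM with KDM1A shRNA (SD, n = 2 each), which puts CXCL1 first, but with the length of the longest transcript CCL20 stood first in that group too (59.5 against 37.8 RPKM). All other members kept their order between groups, and neighbours in the order did not overlap between libraries of 1 group.

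**Figure D2:**
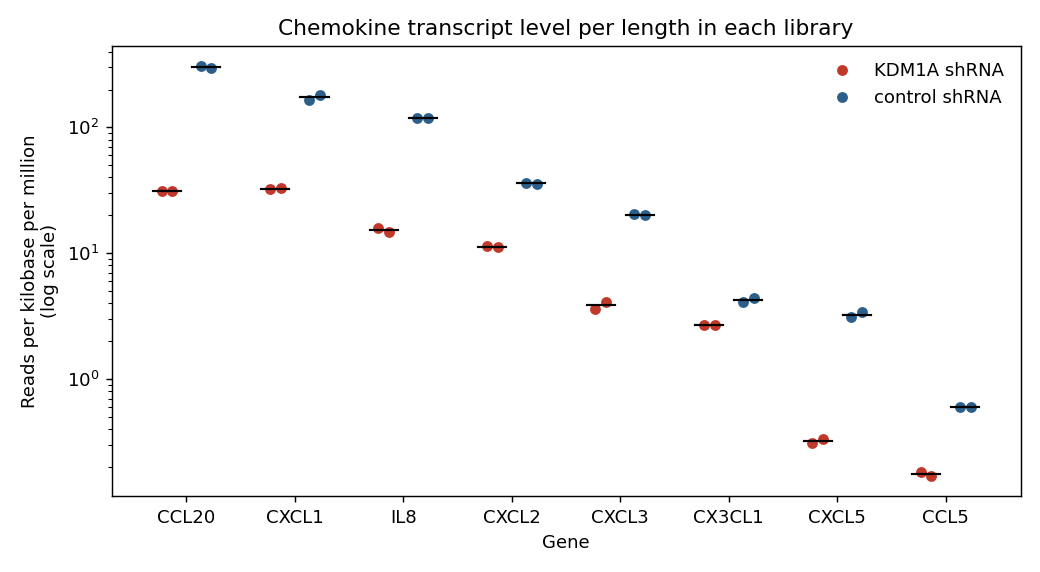
Transcript level per length (RPKM, log scale) of each chemokine in every library, with KDM1A shRNA libraries left of control shRNA libraries 1 point for each library and a line at each mean. CCL20 has the highest control level, at 299 and 305 RPKM.

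The make-up of the ELR CXC transcripts differed along with their sum. The summed level of the family was 63.4 and 63.0 RPKM in KDM1A shRNA libraries, against 344 and 359 RPKM in control libraries, or 18.0% of the control level. CXCL1 made up about the same share of this sum in both groups, 51.1% and 52.0% with KDM1A shRNA against 48.3% and 50.6% with control shRNA. IL8 made up 24.8% and 23.3% with KDM1A shRNA, against 34.4% and 32.9% with control shRNA. CXCL2, by contrast, made up 17.9% and 17.7% with KDM1A shRNA, against 10.5% and 9.98% with control shRNA. The CXCL1 to CXCL2 ratio per length was 2.85 and 2.94 with KDM1A shRNA, against 4.62 and 5.07 with control shRNA. The ratio of CCL20 to IL8 changed less, at 2.00 and 2.13 with KDM1A shRNA against 2.58 and 2.54 with control shRNA. None of these shares was tested.

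**Figure D3:**
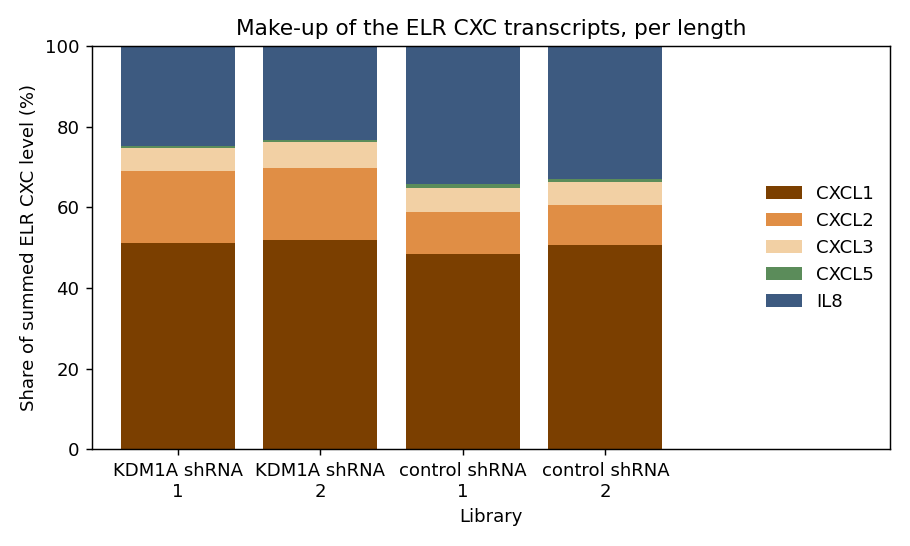
Share (%) of each ELR CXC gene in the summed level per length of the family, as stacked bars, 1 for each library, with KDM1A shRNA libraries left of control shRNA libraries. IL8 takes a smaller and CXCL2 a larger share in the KDM1A shRNA libraries.

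Other genes of the chromosome 4 cluster were examined because position was not used to choose the members. Within 500 kb of the cluster 11 other genes were counted and 5 could be tested, of which 2 were lower and 3 did not pass. The share called lower over all genes tested was 28.8%. PF4, platelet factor 4, a CXC chemokine without the ELR motif whose gene lies between CXCL1 and CXCL5, had 211 and 234 reads with KDM1A shRNA, against 988 and 916 reads with control shRNA. It fell 4.18-fold (log2 fold change −2.06, SE 0.08, edgeR adjusted p = 3.6e-11). EREG, an EGF receptor ligand at the far side of the cluster, had 4287 and 4553 reads with KDM1A shRNA, against 5611 and 5264 reads with control shRNA (log2 fold change −0.26, SE 0.04, edgeR adjusted p = 4.8e-05). RASSF6, next to IL8, did not pass (log2 fold change 0.37, SE 0.17, edgeR adjusted p = 0.075), but passed without control library 1 (0.61, adjusted p = 0.0063). AREG, another EGF receptor ligand, lay at the threshold (−0.29, SE 0.12, edgeR adjusted p = 0.05) and passed without control library 1 (adjusted p = 0.0055) and without KDM1A shRNA library 1 (adjusted p = 0.018). AREG shares 91.2% of its 100-base stretches with AREGB, so its count is uncertain. PF4 shares 61.0% of its 100-base stretches with PF4V1 or an unnamed locus, so the count of PF4 is uncertain too. PF4V1 had 0 reads in every library, and 4.19% of its own stretches were identical to one of PF4 or that locus.

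**Figure D4:**
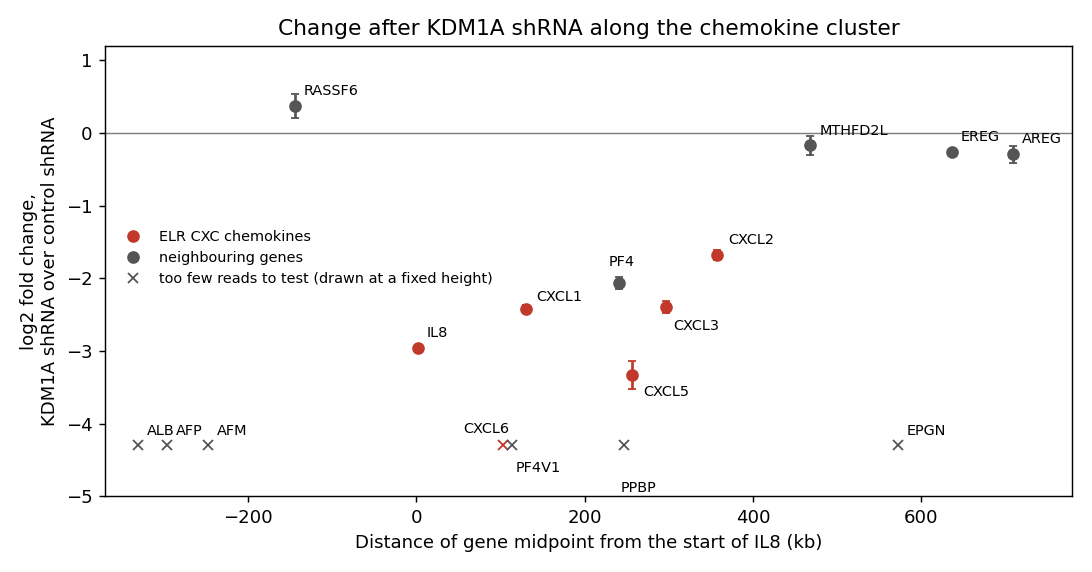
Log2 fold change of KDM1A shRNA over control shRNA for genes tested around the ELR CXC cluster, against the distance of each gene's midpoint from the start of IL8 (kb), with SE bars. Crosses at a fixed height mark genes with too few reads to test. The ELR genes and PF4 lie between −3.33 and −1.67, and the flanking genes lie between −0.29 and 0.37.

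Genes within 250 kb of the other members were counted in the same way, beside 28.8% lower and 27.3% higher over all genes tested. Beside CCL20, WDR69 had 304 and 362 reads with KDM1A shRNA, against 171 and 111 reads with control shRNA, and rose (log2 fold change 1.28, SE 0.14, edgeR adjusted p = 1.9e-06), while the thiamine transporter gene SLC19A3 did not pass (0.29, adjusted p = 0.38). The 5 neighbours of CCL2 had 0 reads in every library, as CCL2 did. Of 15 neighbours of CCL5, 4 were tested. RASL10B, a Ras-like gene, fell (5 and 5 reads with KDM1A shRNA, against 86 and 83 reads with control shRNA, edgeR adjusted p = 7.7e-08). It passed the filter on low counts only through the control libraries. MMP28, a metalloprotease gene, TAF15 and RDM1 rose by 1.09, 0.29 and 1.28 on the log2 scale. RDM1 had 24 and 26 reads with KDM1A shRNA, against 14 and 7 reads with control shRNA. It passed the filter on low counts only through the KDM1A shRNA libraries. Without control library 2 its log2 fold change was 0.94 and its call was lost. Of 12 neighbours of CX3CL1, 9 were tested, with 3 higher (ARL2BP, PLLP and CIAPIN1, by 0.17 to 0.47 on the log2 scale), 1 lower (POLR2C, −0.20) and 5 not passing. Without KDM1A shRNA library 1 the calls of CIAPIN1 (edgeR adjusted p = 0.097) and POLR2C (adjusted p = 0.085) were lost, and without KDM1A shRNA library 2 that of CIAPIN1 (adjusted p = 0.15).

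Receptors for these chemokines were scarce in both groups. Of 23 chemokine receptor genes counted, 5 could be tested, and 2 rose while 3 did not pass (median log2 fold change 0.56, beside −0.005 for all genes tested). The share called higher over all genes tested was 27.3%. CXCR1, CXCR2, CCR6, CCR2 and CX3CR1, signaling receptors of the members that are given after their values were seen, had 0 to 5 reads in every library. CCR6, the receptor of CCL20, had 3 and 5 reads with KDM1A shRNA, against 5 and 2 reads with control shRNA, and CXCR1 and CXCR2 had at most 1 read in any library. CX3CR1 had 0 reads in all 4 libraries. CXCR7 (now ACKR3), a scavenger receptor of CXCL12, rose to 4.35 ± 0.48 CPM with KDM1A shRNA, against 2.50 ± 0.20 CPM with control shRNA (SD, n = 2 each; log2 change 0.81, SE 0.18, edgeR adjusted p = 0.0013). CCRL2, an atypical receptor that presents chemerin, rose to 23.8 ± 0.027 CPM with KDM1A shRNA, against 16.1 ± 0.49 CPM with control shRNA (SD, n = 2 each; log2 change 0.56, edgeR adjusted p = 2.5e-05).

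Of 38 other chemokine genes, 22 had 0 reads in every library and 6 could be tested, of which 1 rose, 2 fell and 3 did not pass. Over all genes tested, 28.8% were lower and 27.3% higher. Besides PF4, CXCL16, a transmembrane chemokine and scavenger receptor, fell to 1.54 ± 0.29 CPM with KDM1A shRNA, against 4.55 ± 1.01 CPM with control shRNA (SD, n = 2 each; log2 change −1.56, SE 0.22, edgeR adjusted p = 2.9e-05). CCL28, a mucosal chemokine, rose to 3.59 ± 0.35 CPM with KDM1A shRNA, against 2.05 ± 0.11 CPM with control shRNA (SD, n = 2 each; edgeR adjusted p = 0.0022).

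NF-kB subunits and regulators were all measured, with 23 of 23 tested, 3 higher, 14 lower and 6 not passing (median log2 fold change −0.20). Of these, 3 were lower by 2-fold or more. Over all genes tested, 28.8% were lower, 27.3% were higher and 8.54% were lower by 2-fold or more. BIRC3, an inhibitor of apoptosis that acts at the TNF receptor, fell to 790 ± 20.1 CPM with KDM1A shRNA, against 1871 ± 20.6 CPM with control shRNA (SD, n = 2 each; log2 change −1.24, SE 0.03, edgeR adjusted p = 8.3e-13). TNFAIP3, or A20, a ubiquitin-editing inhibitor of the pathway, fell to 29.4 ± 0.81 CPM with KDM1A shRNA, against 65.8 ± 1.38 CPM with control shRNA (SD, n = 2 each; −1.16, SE 0.06). TNIP1, a partner of A20, fell by 0.76 and NFKB2, the p100 subunit of the non-canonical branch, by 0.81 on the log2 scale. These 4 genes are themselves known to be induced through NF-kB. Chosen after its values were seen, RELA, the main activating subunit, had 124 ± 2.43 CPM with KDM1A shRNA and 130 ± 10.4 CPM with control shRNA (SD, n = 2 each), which did not pass (log2 fold change −0.07, SE 0.05, edgeR adjusted p = 0.29). With control library 1 left out it passed at −0.15 (adjusted p = 0.0011). The 3 that rose were the kinase genes CHUK, IKBKB and MAP3K14, by 0.32, 0.31 and 0.58 on the log2 scale, also named after their values were seen. Without KDM1A shRNA library 1, 8 in place of 14 genes of this list were lower.

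Of 17 AP-1 and C/EBP factors, 16 were tested, with 12 lower and 4 not passing (median log2 fold change −0.37). Over all genes tested, 28.8% were lower and 27.3% higher. ATF3, a stress-induced factor, fell to 6.96 ± 1.13 CPM with KDM1A shRNA, against 20.0 ± 0.76 CPM with control shRNA (SD, n = 2 each; −1.53, SE 0.11, edgeR adjusted p = 2.8e-08). DDIT3, or CHOP, an inhibitory C/EBP relative, fell to 11.4 CPM with KDM1A shRNA, against 24.5 CPM with control shRNA. CEBPA, a factor of myeloid and adipocyte differentiation, had 3 and 4 reads with KDM1A shRNA, against 45 and 41 reads with control shRNA (−3.54, SE 0.40, edgeR adjusted p = 3.2e-06). It passed the filter on low counts only through the control libraries, and its KDM1A shRNA counts lie close to the floor of 3 reads. CEBPG fell less, by 0.40 on the log2 scale.

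Of 34 genes of IL-1, TNF, IL-17 and Toll-like receptor signaling, 30 were tested, with 6 higher, 14 lower and 10 not passing (median log2 fold change −0.12). The shares over all genes tested were 28.8% lower and 27.3% higher. IL1B, the cytokine interleukin-1 beta, had 17 and 20 reads with KDM1A shRNA, against 230 and 202 reads with control shRNA, a fall of 11.4-fold (log2 fold change −3.50, SE 0.19, edgeR adjusted p = 1.3e-09). Its level was 0.74 CPM with KDM1A shRNA and 8.46 CPM with control shRNA. IL1A, named after its values were seen, fell by 1.89 on the log2 scale. TNF had 0 and 0 reads with KDM1A shRNA, against 2 and 4 reads with control shRNA, and could not be tested. The decoy receptor IL1R2, which binds interleukin-1 without signaling, fell to 2.16 ± 0.28 CPM with KDM1A shRNA, against 14.2 ± 1.42 CPM with control shRNA (SD, n = 2 each; −2.71, SE 0.15). IRAK3, a brake on Toll-like receptor signaling, fell to 88.3 ± 3.46 CPM with KDM1A shRNA, against 297 ± 10.9 CPM with control shRNA (SD, n = 2 each; −1.75, SE 0.05, edgeR adjusted p = 4.1e-13), and TLR2, a receptor of bacterial lipoproteins, fell by 1.30 on the log2 scale. In the other direction TLR3 and TLR6, named after their values were seen, rose by 1.56 and 1.58 on the log2 scale (edgeR adjusted p = 2.1e-07 and 1.6e-09). The genes that fell included activators and inhibitors of the pathway alike.

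Many chemokine messages carry AU-rich elements that control their decay, so factors of this decay were listed too. All 16 were tested, with 3 higher, 7 lower and 6 not passing (median log2 fold change −0.05). Over all genes tested, 28.8% were lower and 27.3% higher. ZC3H12A, or Regnase-1, a nuclease that degrades inflammatory messages, fell to 53.5 ± 0.48 CPM with KDM1A shRNA, against 119 ± 8.85 CPM with control shRNA (SD, n = 2 each; −1.15, SE 0.06, edgeR adjusted p = 4.3e-10). Its relative ZC3H12C fell by 0.57, the decay factor ZFP36L1 by 0.48 and the MAP kinase phosphatase DUSP1 by 0.39 on the log2 scale. The 3 that rose were ZFP36L2, HNRNPD and RC3H1, named after their values were seen, by 0.13 to 0.19 on the log2 scale, and each lost its call without a KDM1A shRNA library (edgeR adjusted p = 0.065 to 0.25).

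**Figure D5:**
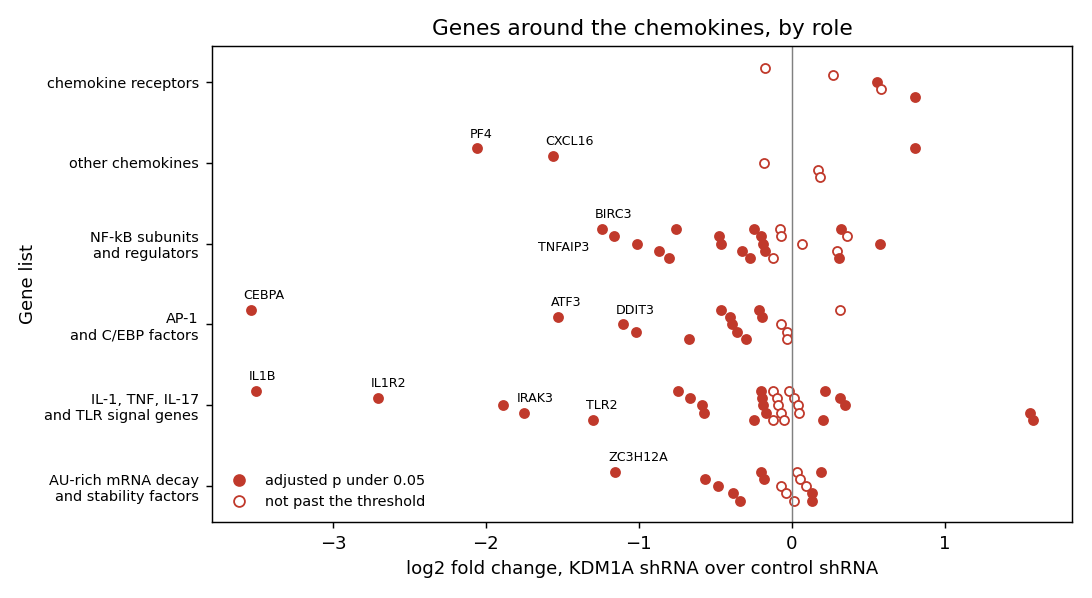
Log2 fold change of KDM1A shRNA over control shRNA for every tested gene of each list, 1 point for each gene, with the lists down the page and filled points for an adjusted p under 0.05. Most genes lie near 0, and CEBPA, IL1B and IL1R2 lie farthest left, at −3.54, −3.50 and −2.71. CEBPA had 3 and 4 reads in the KDM1A shRNA libraries.

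Genes with the pattern most like the mean of CCL20, IL8 and CXCL1 were sought over the 4 libraries, by the smallest Euclidean distance between mean-centred log2 CPM. With 2 groups of close duplicates, this distance mainly shows how near a gene's fold is to the mean fold of these 3 genes. KDM1A, the gene targeted by the shRNA, was nearest (distance 0.14). PI3, or elafin, an inhibitor of neutrophil elastase, followed at 0.18. ADAMTS1, a secreted metalloprotease, lay at 0.20 and CSF3, the growth factor G-CSF that drives neutrophil production, at 0.21. SERPINA3, an acute-phase protease inhibitor, and SAA2, an acute-phase apolipoprotein, lay at 0.25 and 0.27. CSF3 had 428 and 452 reads with KDM1A shRNA, against 3407 and 3807 reads with control shRNA. PI3 had 133 and 157 reads with KDM1A shRNA, against 1318 and 1252 reads with control shRNA. The log2 fold changes of these genes other than KDM1A ran from −3.27 to −3.00, and since the likeness to the chemokines chose them, no test is given. SAA2 shares 35.6% of its 100-base stretches with SAA1 or the locus SAA2-SAA4, so the count of SAA2 is uncertain.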

How the data were processed

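The authors deposited whole-number read counts for each gene symbol, in 1 file for each library and without normalization. The submitters' processing notes name CASAVA 1.8.2, TopHat2 2.0.8b, HTSeq and the hg19 build. The gene annotation and strand setting are not stated in the sources used. Each file lists 23228 genes and 5 HTSeq summary lines, which were left out. Multiply aligned reads, which HTSeq did not count, made up 29.7% to 29.8% of each KDM1A shRNA file and 31.9% to 32.2% of each control file.

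All 4 libraries entered 1 fit in edgeR 4.0.16 (R 4.3.3) with TMM scaling and filterByExpr (minimum count 10, minimum total 15). Group was the single term of the quasi-likelihood F-test. P-values were adjusted by Benjamini-Hochberg over all 14012 tested genes at a threshold of 0.05. An exact permutation test cannot go below p = 0.333 with 2 libraries in each group, so none was run. Gene lengths are exon unions of GENCODE release 44 lifted to GRCh37, matched for 21042 genes by symbol or RefSeq synonym. The procedure was tested on simulated counts with 200 changed genes.

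The members and the gene lists were chosen with earlier results of these data known. Named genes are the 10 members, KDM1A, up to 4 genes of each list and of each locus with the smallest p, and the 6 genes of mean log2 CPM of 3 or more nearest in pattern; others are marked. In the distances, 0.5 CPM was added before the log2. Counts of the libraries within each group differed beyond sampling noise: the chi-square per degree of freedom was 1.60 with KDM1A shRNA and 3.97 with control shRNA. Alternatives were RLE, upper quartile and library size scaling, filters of at least 1 read or of 5 CPM on average, limma-voom (limma 3.58.1), DESeq2 1.42.0, a replicate block and leaving out each library. No protein sequence was used here.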

Additional observations from a re-analysis of the deposited data

How the results depend on the processing

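Across 12 alternatives, all 94 values of the 8 fitted chemokines stayed negative, and 90 of them moved by less than 1 SD of the replicates; the other 4 were CXCL2 and CCL20 with upper quartile scaling or a mean of 5 CPM or more. The members were chosen on this contrast in these same libraries, so nothing is read from the kept sign. CCL20 ran from −3.30 to −3.26 on the log2 scale, IL8 from −3.01 to −2.91 and CXCL1 from −2.48 to −2.35. The median of the fitted chemokines (−2.40) was −2.43 with upper quartile scaling, −2.43 with a mean of 5 CPM or more, where CXCL5 and CCL5 were not tested, and −2.45 to −2.36 with 1 library left out. Other chemokines called lower numbered 1 with a mean of 5 CPM or more, where fewer genes were tested, in place of 2. NF-kB genes called lower numbered 8 to 14 with 1 library left out. Leaving out 1 library gave 2832 to 4041 genes higher and 3146 to 4168 lower. Of 647 values of other named genes, 619 kept their side of the threshold, 16 lost the call and 12 gained it. No called value changed sign, but 2 that did not pass did: RELA was 0.015 without control library 2 and CXCL11 was −0.001 without control library 1, where it was 0.17 with all libraries. DESeq2 did not call CIAPIN1 (adjusted p = 0.093), RDM1 (adjusted p = 0.091) or RC3H1 (adjusted p = 0.15). The cause was not tested. Replicate numbers did not pair the libraries (correlation of deviations 0.011 over 14012 genes); with the number as a replicate block, 3978 genes were higher and 4164 lower, all 8 fitted chemokines were lower, and RASSF6 (adjusted p = 0.035) and AREG (adjusted p = 0.017) were also called. Depth limits CCL5, CXCL6 and CCL2, where a change could not be measured well or at all.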
